A study of Mus musculus with 4 samples.

Results

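Acute phase proteins are plasma proteins whose output by the liver changes in inflammation, and the transcripts of 10 of them were examined: Saa1, Saa2, Saa3, Saa4, Orm1, Orm2, Hp, Hpx, Lcn2 and Apcs. The members were taken by symbol, and all 10 were found among the 24346 genes listed for each library. The values came from RNA sequencing of liver from male C57BL/6 mice, all fed for 3 weeks on a diet rich in fat, cholesterol and sucrose plus bile salt (the NASH diet, for the steatohepatitis that it induces). The diet of the 7KC group (n = 2) also contained 7-ketocholesterol (7KC), which forms when cholesterol is oxidized, and the control group (n = 2) had the same diet with none added. No group on ordinary chow was among the samples, so both groups were livers under the NASH diet. The labels gave no age, and they did not say whether the 2 libraries of a group came from separate mice, so each spread is that between libraries.

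In the acute phase response, cytokines such as IL-6, IL-1 and TNF act on hepatocytes, and STAT3, NF-κB and C/EBP factors then switch on the genes of positive acute phase proteins. Serum amyloid A proteins bind high-density lipoprotein, alpha-1-acid glycoproteins (Orm genes) bind lipids and drugs, haptoglobin and hemopexin bind hemoglobin and heme, and lipocalin 2 binds bacterial iron carriers. The output of negative acute phase proteins such as albumin and transthyretin drops at the same time.

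Values were in FPKM, the fragments on a gene for its exon length and for all mapped fragments of the library, so levels can be compared between genes. Mapped reads were estimated at 17100000 and 13800000 for the control group and at 13600000 and 13700000 for the 7KC group. The lowest value of any member, Apcs in 7KC replicate 1, then stood for about 539 reads, with a counting error of 4.31%. Counting error was therefore small against the spread between libraries for the members. The summed FPKM of all genes was between 557138 and 685028. Hepatocyte markers, which define the labelled tissue, were present in all libraries, with 14 markers summing to between 46974 and 83890 FPKM.

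Saa3, Orm2 and Lcn2 had higher levels in the 7KC group, by 2.83, 2.54 and 2.30 times, and their libraries did not overlap between groups. Saa1 and Saa2, the most variable of the abundant members, were 1.44 and 1.69 times as high on average, but their libraries overlapped. Hp, Hpx, Orm1 and Saa4 were steady, with group means within 1.21 times of each other, and Apcs was the lowest member and had the lower mean in the 7KC group. No member passed the threshold with limma over all 12299 genes tested (Benjamini-Hochberg adjusted p under 0.05, a level reached by 0.48% of genes as higher and 0.0244% as lower). At an unadjusted p under 0.05, 3 of the 10 members were higher (limma), where 12% of all genes tested were. The 7KC libraries both exceeded the control libraries in 5 of 10 members, against 25.1% of all genes tested, and both lay lower in 1 member, Saa4, against 27.4%. Both criteria of no overlap and a ratio of means of at least 2 were met by 3 members, against 6.5% of genes, and 0 members were at least 2-fold lower without overlap, against 0.504%. Members are abundant transcripts, and among the 1122 genes with a mean at least that of Apcs, a background chosen after the data were seen, 11.3% were higher without overlap, 53.1% lower without overlap and 3.12% at least 2-fold higher. With 2 libraries against 2, the smallest 2-sided p of an exact permutation test for a single gene is 0.333.

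**Figure D1:**
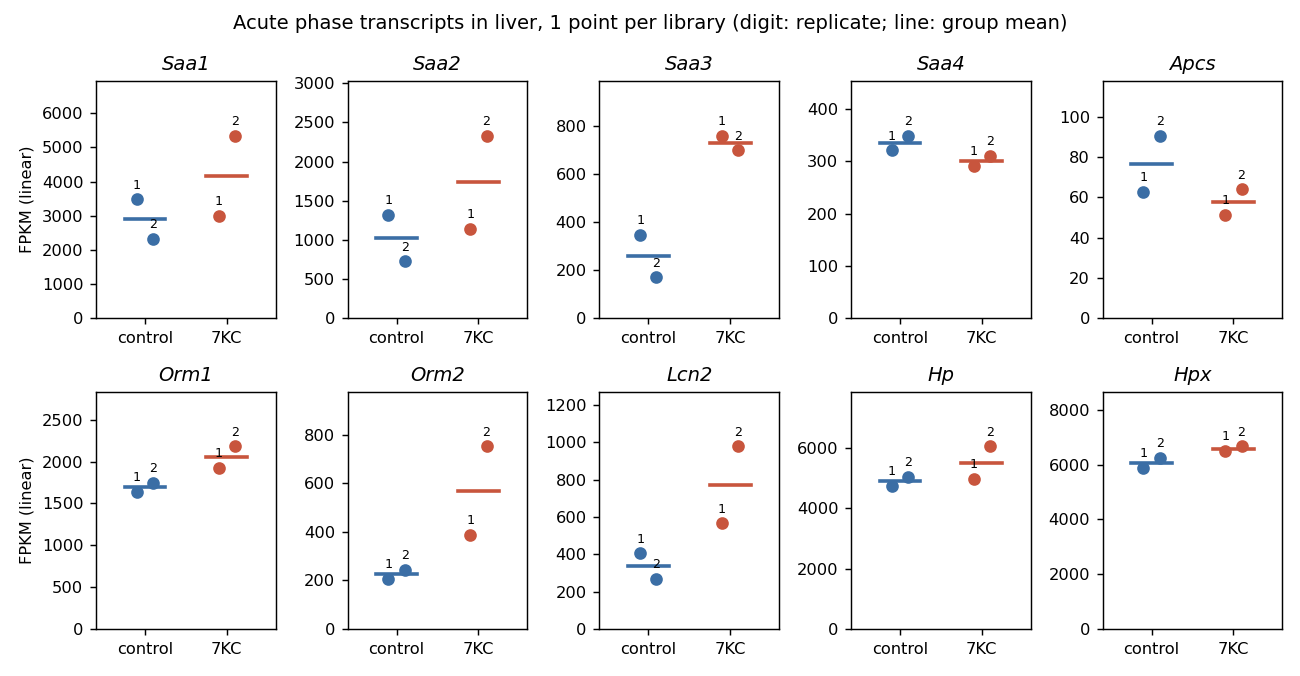
FPKM of each acute phase transcript in the 4 liver libraries, on linear axes that start at 0. Points are libraries, with the replicate number beside each, and lines are group means. The 7KC points lie above the control points in Saa3, Orm1, Orm2, Lcn2 and Hpx, and the points interleave in Saa1, Saa2, Hp and Apcs.

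The inducible serum amyloid A genes, Saa1 and Saa2, encode the forms that hepatocytes secrete in the acute phase. Saa1 (GRCm38 chr7:46740497-46742980, minus strand) was at 3479 and 2320 FPKM on the NASH diet alone against 2984 and 5340 FPKM on the diet with 7KC. Saa2 (chr7:46751790-46754313, plus strand) was at 1323 and 724 FPKM on the NASH diet alone against 1136 and 2329 FPKM on the diet with 7KC. In both genes 7KC replicate 2 was the highest library and control replicate 2 the lowest, and control replicate 1 lay above 7KC replicate 1, so the groups overlapped. The means were 2900 ± 820 and 4162 ± 1666 FPKM for Saa1 (SD, n = 2 each), a log2 difference of 0.49 (SE 0.37, limma adjusted p 0.524). For Saa2 they were 1024 ± 423 and 1732 ± 844 FPKM (SD, n = 2 each), a log2 difference of 0.73 (SE 0.44, limma adjusted p 0.437). The difference thus did not exceed the spread between libraries in either gene. Without 7KC replicate 2 the log2 difference was 0.07 for Saa1 and 0.21 for Saa2, and without 7KC replicate 1 it was 0.91 and 1.25.

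Saa1 and Saa2 lie head to head and are close copies, and the start of their coding sequences is shown with that of Saa3 because it shows how far reads can tell them apart. The sequences were read from the GENCODE M21 transcripts, bases 1 to 90 of the coding sequence, and capitals mark bases that differ from Saa1.
Saa1: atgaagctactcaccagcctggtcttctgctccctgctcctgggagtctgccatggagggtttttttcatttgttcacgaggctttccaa
Saa2: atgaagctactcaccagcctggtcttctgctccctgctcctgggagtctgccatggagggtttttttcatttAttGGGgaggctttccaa
Saa3: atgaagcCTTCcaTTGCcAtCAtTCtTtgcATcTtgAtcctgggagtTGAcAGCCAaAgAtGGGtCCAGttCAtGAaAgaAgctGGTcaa
Of these 90 bases, Saa2 differed from Saa1 at 4 and Saa3 at 44. Over the whole coding sequence of 366 bases, Saa1 and Saa2 were identical at 95.1% and Saa1 and Saa3 at 73%. A read had 75 bases, and 25 of 535 windows of that length in the Saa1 transcript (4.67%) also occurred in Saa2. The windows of Saa3 and Saa4 were found in no other gene's transcript. How the authors assigned reads with several matches or with mismatches was not given in the sources used here, so the split between Saa1 and Saa2 is less certain than their sum. Summed into 1 gene, a setting added after seeing the data, they were at 4802 and 3044 FPKM on the NASH diet alone against 4120 and 7669 FPKM on the diet with 7KC, a log2 difference of 0.56 (SE 0.40, limma adjusted p 0.501). The ratio of Saa1 to Saa2 within a library was 2.63 and 3.20 in the control group and 2.63 and 2.29 in the 7KC group.

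Saa3 encodes an inducible serum amyloid A that is also made by macrophages and adipocytes. Saa3 (chr7:46711998-46715700, minus strand) was at 346 and 170 FPKM on the NASH diet alone against 759 and 698 FPKM on the diet with 7KC. Both 7KC libraries were high and close to each other, both control libraries were low, and the groups did not overlap. The means were 258 ± 125 and 729 ± 43.2 FPKM (SD, n = 2 each), the largest difference of the 10 members, with a log2 difference of 1.58 (SE 0.34, limma adjusted p 0.108, p 0.00495). Its adjusted p was 0.0191 without control replicate 1, the higher control library, and 0.0477 with all libraries scaled to an equal sum, and it ranged up to 0.463 over the alternatives. Relative to Saa1 in the same library, Saa3 stood at 0.0995 and 0.0732 in the control group and at 0.254 and 0.131 in the 7KC group.

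Saa4 encodes the constitutive serum amyloid A, which is part of high-density lipoprotein without inflammation. Saa4 (chr7:46727998-46732603, minus strand) was at 321 and 349 FPKM on the NASH diet alone against 291 and 311 FPKM on the diet with 7KC. The 7KC libraries lay just below the control libraries, and the log2 difference was -0.15 (SE 0.13, limma adjusted p 0.571). With all libraries scaled to an equal sum this small change turned to 0.05 and the libraries overlapped. Saa4 was the highest of Saa3, Saa4 and Orm2 in control replicate 2 and the lowest of them in both 7KC libraries.

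Apcs encodes serum amyloid P, a pentraxin that serves as an acute phase protein in mice. Apcs (chr1:172893961-172895041, minus strand) was at 62.9 and 90.6 FPKM on the NASH diet alone against 51.2 and 64.0 FPKM on the diet with 7KC. The groups overlapped narrowly, since 7KC replicate 2 lay just above control replicate 1. The log2 difference was -0.40 (SE 0.22, limma adjusted p 0.392), and it was negative under each setting tried.

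The sequences just before the start sites of the serum amyloid A genes and Orm2 are shown because Saa1 and Saa2 followed the same order over the 4 libraries while Saa4 was steady. They come from the 250 bases before the start site, from RefSeq on GRCm38.p6, written 5′ to 3′ on the strand of the gene. They end where a GENCODE M21 exon begins, which leaves out the last 43 bases for Saa2 and 24 for Saa3. RefSeq begins the gene 201 bases before the start site used for Saa1 and 3939 bases before that for Saa3. The bases shown for these genes therefore lie in part (Saa1) or wholly (Saa3) within the span of the gene. Capitals mark matches to the C/EBP pattern TTNNGNAA and to the kappa-B consensus (bound by NF-κB), each searched on both strands.
Saa1, chr7:46742981-46743230, minus strand: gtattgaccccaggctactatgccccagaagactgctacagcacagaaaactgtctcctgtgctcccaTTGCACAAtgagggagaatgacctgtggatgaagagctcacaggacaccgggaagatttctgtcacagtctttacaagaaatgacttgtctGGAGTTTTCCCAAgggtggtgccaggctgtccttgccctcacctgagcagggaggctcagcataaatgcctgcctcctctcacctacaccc
Saa2, chr7:46751583-46751789, plus strand: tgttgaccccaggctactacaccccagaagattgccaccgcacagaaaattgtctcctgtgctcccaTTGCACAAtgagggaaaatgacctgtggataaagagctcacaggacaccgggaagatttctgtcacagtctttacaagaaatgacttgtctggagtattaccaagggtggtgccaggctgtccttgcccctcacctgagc
Saa3, chr7:46715701-46715926, minus strand: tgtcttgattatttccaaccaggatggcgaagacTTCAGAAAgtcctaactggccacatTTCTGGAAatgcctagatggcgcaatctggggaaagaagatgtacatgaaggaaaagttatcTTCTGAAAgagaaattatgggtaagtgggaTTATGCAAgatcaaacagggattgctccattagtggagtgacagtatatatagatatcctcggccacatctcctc
Saa4, chr7:46732604-46732853, minus strand: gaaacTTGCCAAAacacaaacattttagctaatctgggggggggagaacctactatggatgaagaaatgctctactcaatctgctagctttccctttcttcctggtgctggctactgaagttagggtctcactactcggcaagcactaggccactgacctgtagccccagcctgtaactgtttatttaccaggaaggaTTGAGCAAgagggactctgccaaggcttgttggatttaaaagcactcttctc
Orm2, chr4:63362199-63362448, plus strand: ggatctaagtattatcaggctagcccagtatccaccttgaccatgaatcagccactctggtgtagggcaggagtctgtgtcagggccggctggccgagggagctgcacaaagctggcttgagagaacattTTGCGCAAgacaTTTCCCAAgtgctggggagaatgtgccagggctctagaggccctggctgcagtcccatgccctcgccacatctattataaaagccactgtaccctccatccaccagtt
Sequences of this kind were found for 8 of the 10 members, all but Orm1 and Hp. Saa1 and Saa2 were identical at 95.2% of the 250 bases when aligned, and both held the C/EBP match TTGCACAA, 182 and 183 bases before the start. The kappa-B match GGAGTTTTCC in Saa1 began 91 bases before the start and overlapped a second C/EBP match, TTTCCCAA, and Saa2 held no match to either pattern there. Saa3 held 4 C/EBP matches, of which TTATGCAA was the closest to the start. Saa4 and Orm2 held 2 each, as did Hpx, whose bases are not shown, so Saa4 and Hpx, members with little change, held matches too. Lcn2, whose 250 bases overlap exons of longer GENCODE transcripts and are not shown, held 1 C/EBP match and the kappa-B match GGAGTCCTCC. Of the 8 members, 7 held a C/EBP match, against 36.8% of all 32851 RefSeq start sites, and 2 held a kappa-B match, against 9.55%. Saa1 and Saa2, as near copies, are not separate cases in the C/EBP count. The STAT pattern TTCNNNGAA was found in 1, Apcs, against 7.02%. A match is a run of letters in these bases and not a measured binding site.

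Orm1 and Orm2 encode alpha-1-acid glycoproteins, and they differed in level and in change. Orm1 (chr4:63344560-63348163, plus strand) was at 1634 and 1749 FPKM on the NASH diet alone against 1923 and 2180 FPKM on the diet with 7KC. Orm2 (chr4:63362449-63365878, plus strand) was at 206 and 243 FPKM on the NASH diet alone against 388 and 752 FPKM on the diet with 7KC. In each of the Orm genes the groups did not overlap, the 7KC group was the higher, and 7KC replicate 2 was the highest. Orm1 had means of 1691 ± 81.4 and 2052 ± 182 FPKM (SD, n = 2 each) and a log2 difference of 0.28 (SE 0.18, limma adjusted p 0.457). Orm2 had means of 225 ± 25.6 and 570 ± 257 FPKM (SD, n = 2 each) and a log2 difference of 1.27 (SE 0.33, limma adjusted p 0.145, p 0.0103). Orm1 was 7.91 and 7.21 times the level of Orm2 in the control group, beside 4.95 and 2.90 times in the 7KC group. Without 7KC replicate 2 the log2 difference of Orm2 was 0.79, and without 7KC replicate 1 it was 1.75.

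The Orm genes also share sequence. The coding sequences of Orm1 and Orm2, 621 bases each, were identical at 89.9%, and 97 of 701 windows of 75 bases in Orm1 (13.8%) also occurred in Orm2. Orm3, the other gene of the cluster, shared 1 window with Orm2 and was at 51.8 and 41.4 FPKM on the NASH diet alone against 54.6 and 68.7 FPKM on the diet with 7KC. Summed into 1 gene, a setting added after seeing the data, the 3 genes had a log2 difference of 0.44 (SE 0.20, limma adjusted p 0.333).

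Lcn2 encodes lipocalin 2, which binds the iron carriers of bacteria and is made by hepatocytes, macrophages and neutrophils in inflammation. Lcn2 (chr2:32384633-32388252, minus strand) was at 405 and 267 FPKM on the NASH diet alone against 566 and 979 FPKM on the diet with 7KC. Both 7KC libraries were above both control libraries, but the libraries within each group were also apart, by 1.51 and 1.73 times. The means were 336 ± 97.2 and 772 ± 292 FPKM (SD, n = 2 each), a log2 difference of 1.18 (SE 0.33, limma adjusted p 0.175, p 0.015). Its adjusted p lay between 0.096 and 0.579 over the planned settings and was 0.0302 with the crossed replicate block, a setting added after seeing the data. That block pairs control replicate 1 with 7KC replicate 2, a pairing that no label gives. It was picked by a correlation in these same data, so its smaller adjusted p is no support for a call. Without 7KC replicate 2 the log2 difference of Lcn2 was 0.78.

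Hp and Hpx, which encode haptoglobin and hemopexin, were the most abundant members and differed little. Hp (chr8:109575128-109579172, minus strand) was at 4742 and 5028 FPKM on the NASH diet alone against 4972 and 6043 FPKM on the diet with 7KC, with 7KC replicate 1 between the control libraries. Hpx (chr7:105591613-105600137, minus strand) was at 5879 and 6254 FPKM on the NASH diet alone against 6501 and 6659 FPKM on the diet with 7KC, with no overlap. The log2 differences were 0.17 for Hp (SE 0.22, limma adjusted p 0.732) and 0.12 for Hpx (SE 0.22, limma adjusted p 0.81). Both are small on the deposited scale, and with all libraries scaled to an equal sum, which took the median of all genes tested from -0.03 to 0.17, they were 0.37 and 0.32 and neither gene overlapped between groups.

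**Figure D2:**
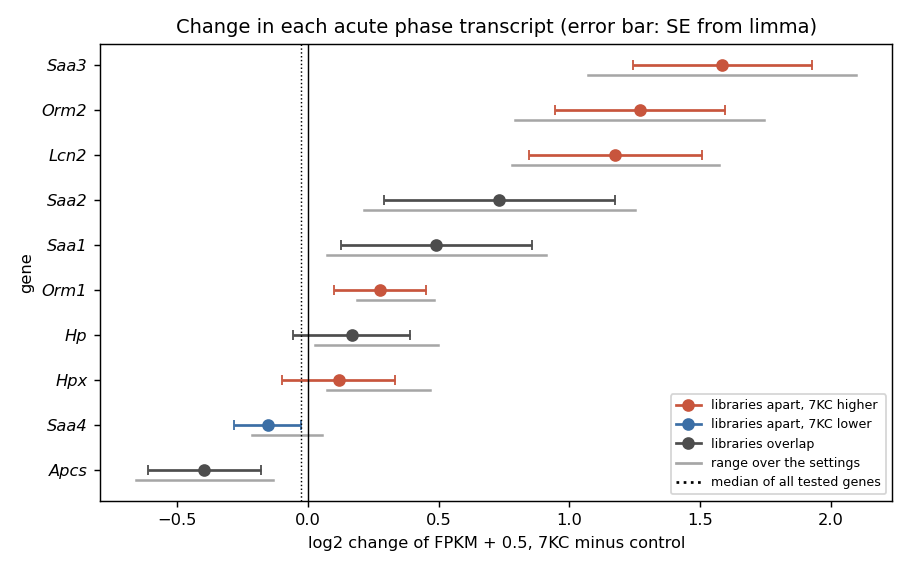
Log2 difference of each acute phase transcript, 7KC minus control, on the log2(FPKM + 0.5) scale. Points are the fitted changes with the SE from limma, colours give whether the libraries overlap, grey lines below give the range over all settings, and the dotted line is the median of all tested genes at -0.03. Saa3, Orm2 and Lcn2 lie to the right at 1.58, 1.27 and 1.18, and the grey line of Saa4 alone crosses 0.

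In order of level within a library, Hpx, Hp and Saa1 led in that order and Apcs was last in each of the 4 libraries. Orm1 lay above Saa2 in all but 7KC replicate 2. Below these, Lcn2, Saa3, Saa4 and Orm2 changed places from library to library, and their order in the control group was not clear of the spread. Hpx ranked between 8 and 13 among all listed genes and Hp between 9 and 15. Saa1 ranked 25 and 35 in the control group, beside 27 and 11 in the 7KC group. Saa3 ranked 302 and 515 in the control group and 106 and 104 in the 7KC group, and Orm2 ranked 444 and 390 and then 241 and 94.

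Summed, the 10 transcripts made up 2.69% and 2.56% of all FPKM in the control group and 3.16% and 4.55% in the 7KC group. Both 7KC libraries were above both control libraries, and the ratio of group means was 1.47. It was 1.20 without 7KC replicate 2 and 1.73 without 7KC replicate 1. The summed FPKM of the members alone was 18398 and 17194 in the control group, beside 19572 and 25354 in the 7KC group, so part of the gain in share lay in the lower total of all genes in the 7KC libraries.

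**Figure D3:**
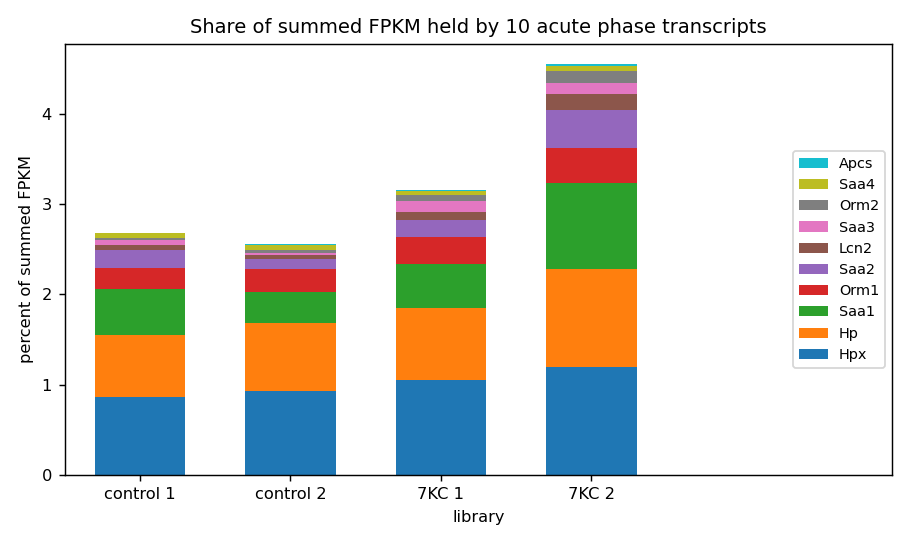
Share of the summed FPKM of each liver library held by the 10 acute phase transcripts, as stacked bars in percent. The bars reach 2.69, 2.56, 3.16 and 4.55%, and Hpx, Hp and Saa1 make up most of each.

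The members fell into those that varied between libraries and those that did not. The fold between the highest and the lowest of the 4 libraries was 4.47 for Saa3, 3.66 for Lcn2, 3.64 for Orm2, 3.21 for Saa2 and 2.30 for Saa1, and it was 1.77 for Apcs and at most 1.34 for Orm1, Hp, Saa4 and Hpx. The control replicates themselves differed by 2.04 times in Saa3, 1.83 times in Saa2, 1.51 times in Lcn2 and 1.50 times in Saa1, where the median over all tested genes was 1.12. The 7KC replicates differed by 2.05 times in Saa2 and by 1.09 times in Saa3, where the median was also 1.12. In Saa1, Saa2 and Lcn2, 7KC replicate 2 was the highest library and control replicate 2 the lowest.

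For the 3 members with the widest range, the genes with the nearest profile over the 4 libraries were sought among all tested genes, by the distance between log2 values centred on their own mean. This is a description over 4 libraries, and with so many genes some lie close by their number alone. Saa3 was nearest to Cd52 (distance 0.14), Ccl8 (0.15) and S100a4 (0.16), genes of leukocytes and macrophages. Cd52, a surface glycoprotein of leukocytes, was at 151 and 79.7 FPKM on the NASH diet alone against 314 and 314 FPKM on the diet with 7KC. Lcn2 was nearest to Lgals3 (0.08), which encodes galectin-3 of macrophages, Cd37 (0.10) and Parvg (0.12). Lgals3 was at 33.5 and 22.6 FPKM on the NASH diet alone against 50.5 and 83.4 FPKM on the diet with 7KC. Orm2 was nearest to Tlr9 (0.20), Tbxas1 (0.21) and Ripk3 (0.23), all at less than 10 FPKM in each library. Of these, Tlr9 passed the filter on low values only through its 7KC libraries. The change of so low a gene is understated with the pseudocount of 0.5, so the closeness of Tlr9 to Orm2 depends in part on that setting. The nearest member to Saa1 was Saa2 (0.34), and to Hp it was Orm1 (0.13).

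Cell markers moved with the same libraries. The 14 monocyte and macrophage markers summed to 707 and 455 FPKM on the NASH diet alone against 1341 and 2034 FPKM on the diet with 7KC, and 9 of 14 were higher in the 7KC group without overlap. Most of this sum was Lyz2, at 538 and 321 FPKM on the NASH diet alone against 995 and 1583 FPKM on the diet with 7KC. The 10 Kupffer cell markers summed to between 765 and 814 FPKM in the control group and between 1082 and 1556 FPKM in the 7KC group, with 6 higher and 2 lower without overlap. Most of this sum was C1qa, C1qb and C1qc, which were among the 6 higher with Timd4, Marco and Cd5l. The 2 lower were Cd163 and Vsig4, and Clec4f and Folr2 overlapped between groups. Of 14 neutrophil markers 13 were listed and 5 tested. Their sum was 36.8 and 21.4 FPKM on the NASH diet alone against 41.3 and 44.3 FPKM on the diet with 7KC, with 2 of those tested higher and 1, Camp, lower without overlap. The granule genes Ngp, Ltf, Elane and Mpo were below 0.75 FPKM in each library and were not tested, and Ngp, Ltf and Elane were lower in the 7KC group without overlap. Mmp8, another granule gene at such levels and not tested, went the other way without overlap. It was at 0.233 and 0.225 FPKM on the NASH diet alone against 0.356 and 0.514 FPKM on the diet with 7KC. Of 7 adipocyte markers, Lep was listed at 0 in all libraries and Adipoq in all but 1. The 3 that were tested, Cfd, Cidec and Fabp4, overlapped between groups. Fabp4, the highest of them, was at 29.9 and 37.7 FPKM on the NASH diet alone against 22.1 and 31.0 FPKM on the diet with 7KC. The 14 hepatocyte markers summed to 83890 and 74507 FPKM on the NASH diet alone against 61043 and 46974 FPKM on the diet with 7KC, and 11 were lower without overlap. Alb was the largest part of this sum in each library and overlapped between groups. It was at 41547 and 25202.5 FPKM on the NASH diet alone against 26969 and 18988 FPKM on the diet with 7KC. Without overlap, 25.1% of all genes tested were higher and 27.4% lower, and 53.1% of those at least as abundant as Apcs were lower. No gene of these lists passed the threshold with limma, and at an unadjusted p under 0.05 the count was 9 higher for the monocyte and macrophage, 5 higher for the Kupffer cell, 2 higher for the neutrophil and 3 lower for the hepatocyte markers. Among all genes tested, 12% were higher and 5.81% lower at that p (limma). In bulk liver, fewer cells of a type and less RNA per cell cannot be told apart. The part of these cell markers in the levels of Saa3, Lcn2 and Orm2 was not tested.

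**Figure D4:**
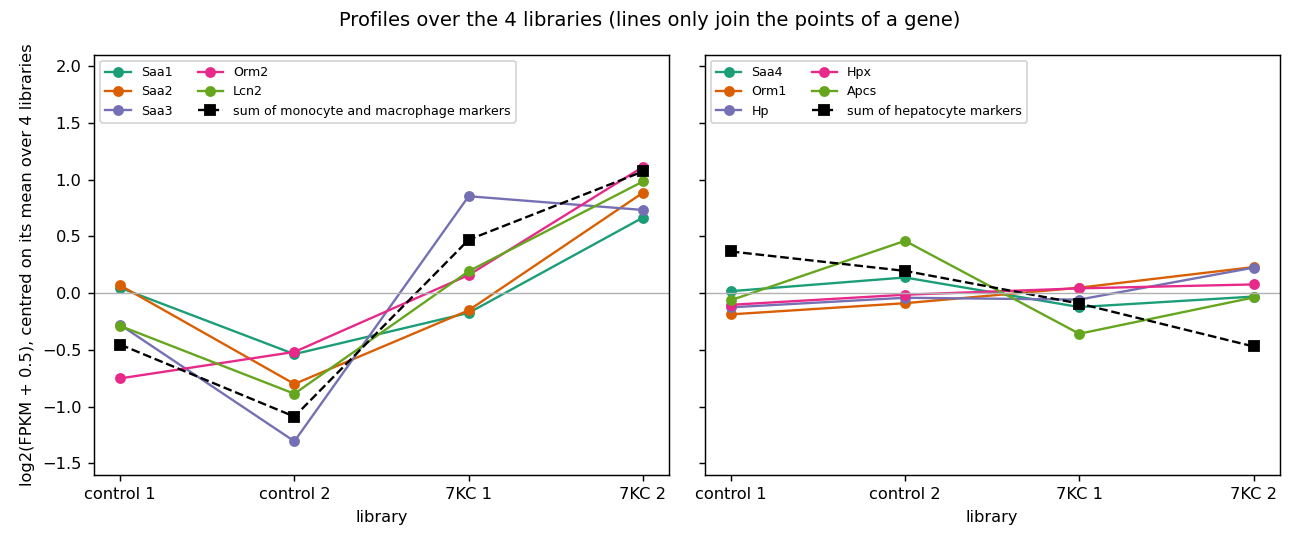
Profiles of the acute phase transcripts over the 4 libraries, as log2(FPKM + 0.5) centred on the mean of each over the libraries. The left panel holds the 5 members with the widest range and the summed monocyte and macrophage markers, the right panel the other 5 members and the summed hepatocyte markers. On the left control replicate 2 is lowest except in Orm2 and the 7KC libraries are mostly high, and on the right the hepatocyte sum is highest in control replicate 1 and lowest in 7KC replicate 2. Lyz2 makes up most of the monocyte and macrophage sum. Alb is the largest part of the hepatocyte sum, and its own level is highest in control replicate 1.

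Other positive acute phase genes lay on both sides of no difference. Of 26 such genes, all tested, none passed the threshold with limma, 5 were higher and 1 was lower at an unadjusted p under 0.05, and 7 were higher and 9 lower without overlap. Over all genes tested, 12% were higher and 5.81% lower at that p (limma), and 25.1% were higher and 27.4% lower without overlap. With all libraries scaled to an equal sum the listed genes became 11 higher and 4 lower without overlap. The share over all genes was not computed on that scale. The median log2 difference was 0.01, beside 0.38 for the 10 members and -0.03 for all genes tested. Leaving out 7KC replicate 2 took the median of the members to 0.14 and leaving out control replicate 2 took it to 0.25. It was 0.64 when 7KC replicate 1 was left out and 0.59 with all libraries scaled to an equal sum. Il1rn, which encodes the IL-1 receptor antagonist, was at 7.55 and 5.81 FPKM on the NASH diet alone against 13.9 and 14.1 FPKM on the diet with 7KC, a log2 difference of 1.03 (SE 0.15, limma adjusted p 0.0605). Steap4, a metalloreductase gene, was at 82.3 and 73.9 FPKM on the NASH diet alone against 109 and 109 FPKM on the diet with 7KC, a log2 difference of 0.48 (SE 0.12, limma adjusted p 0.129). Serpina3m, a protease inhibitor of a family with close copies, was at 351 and 368 FPKM on the NASH diet alone against 229 and 253 FPKM on the diet with 7KC, a log2 difference of -0.58 (SE 0.13, limma adjusted p 0.112). The 3 fibrinogen chain genes, chosen after their values were seen, were lower in the 7KC group without overlap, on the deposited scale, with log2 differences of -0.34 for Fga, -0.40 for Fgb and -0.50 for Fgg. Crp, the other pentraxin beside Apcs, was at 404 and 376 FPKM on the NASH diet alone against 333 and 293 FPKM on the diet with 7KC, and it was likewise named after its values were seen.

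Among 12 negative acute phase genes, all tested, 3 overlapped between groups, 9 were lower in the 7KC group without overlap and none was higher. Lower values without overlap were also found in 27.4% of all genes tested and in 53.1% of those at least as abundant as Apcs. In this list the median log2 difference was -0.49, and each fitted change was negative on the deposited scale. Scaled to an equal sum, 7 were lower and 1 higher without overlap with a median of -0.29, and with quantile normalization 5 were lower and 1 higher with a median of -0.15. None passed the threshold with limma, and 2 were lower at an unadjusted p under 0.05, where 5.81% of all genes tested were. These were Cps1, a urea cycle enzyme, with a log2 difference of -0.52 (SE 0.18, limma adjusted p 0.239), and Itih2, an inter-alpha-trypsin inhibitor chain, with -0.34 (SE 0.13, limma adjusted p 0.262). Rbp4, the plasma carrier of retinol, was at 4093 and 4263 FPKM on the NASH diet alone against 3266 and 2682 FPKM on the diet with 7KC, a log2 difference of -0.50 (SE 0.21, limma adjusted p 0.298). This list shares 5 genes with the hepatocyte markers.

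Of the 12 cytokines that induce the response, 8 were higher in the 7KC group without overlap and none lower, most of them at very low levels. The filter on low values left 6, of which 5 were higher without overlap, none passed the threshold with limma and 5 had an unadjusted p under 0.05. Of these, Ifng passed the filter only through its 7KC libraries. Among all genes tested, 25.1% were higher without overlap and 12% were higher at an unadjusted p under 0.05 (limma). The median log2 difference was 1.17 over the 6 genes, and it was 0.57 without the filter over 11 genes, of which 9 had a positive and 2 a negative value. Ifng was at 0.408 and 0.362 FPKM on the NASH diet alone against 2.99 and 1.38 FPKM on the diet with 7KC, a log2 difference of 1.53 (SE 0.32, limma adjusted p 0.104). Tnf was at 2.13 and 0.826 FPKM on the NASH diet alone against 5.74 and 4.10 FPKM on the diet with 7KC, a log2 difference of 1.52 (limma adjusted p 0.127). Il1a and Il1b had log2 differences of 0.92 and 1.01 (limma adjusted p 0.117 and 0.13). Il6, the main inducer of type 2 acute phase genes, was below the filter, at 0.199 and 0.0823 FPKM on the NASH diet alone against 0.083 and 0.0824 FPKM on the diet with 7KC, so that no difference could be detected at the depth of these libraries. Il22 was listed at 0 in all libraries.

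Among 13 cytokine receptor genes, none passed the threshold with limma, 2 were higher and 1 was lower at an unadjusted p under 0.05, and 6 were higher and 2 lower without overlap. The shares over all genes tested were 12% and 5.81% at that p (limma), and 25.1% and 27.4% without overlap. Ifngr2, a chain of the interferon-gamma receptor, was at 16.1 and 16.1 FPKM on the NASH diet alone against 25.2 and 26.5 FPKM on the diet with 7KC, a log2 difference of 0.66 (SE 0.10, limma adjusted p 0.0621). Il1rap, the shared chain of the IL-1 receptor, was at 59.7 and 63.4 FPKM on the NASH diet alone against 46.2 and 38.4 FPKM on the diet with 7KC, a log2 difference of -0.54 (SE 0.13, limma adjusted p 0.134). Il17ra had a log2 difference of 0.35 (limma adjusted p 0.209).

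Of 17 signal carriers and transcription factors, none passed the threshold with limma, 5 were higher and 0 lower at an unadjusted p under 0.05, and 8 were higher and 2 lower without overlap. Over all genes tested the shares were 12% and 5.81% at that p (limma), and 25.1% and 27.4% without overlap. With all libraries scaled to an equal sum 12 of the listed genes were higher and 0 lower without overlap. The share over all genes was not computed on that scale. Stat3, which carries the IL-6 signal to acute phase genes, was at 40.5 and 35.2 FPKM on the NASH diet alone against 41.3 and 39.2 FPKM on the diet with 7KC, a log2 difference of 0.09 (SE 0.12, limma adjusted p 0.731). Its target Socs3, which limits that signal, was at 11.6 and 10.1 FPKM on the NASH diet alone against 13.9 and 12.7 FPKM on the diet with 7KC, a log2 difference of 0.28 (SE 0.12, limma adjusted p 0.317). Socs1, the inhibitor of interferon signals, was at 2.54 and 2.07 FPKM on the NASH diet alone against 18.8 and 7.17 FPKM on the diet with 7KC, a log2 difference of 2.12 (SE 0.43, limma adjusted p 0.0985). It was 1.46 without 7KC replicate 1 and 2.79 without 7KC replicate 2. Nfkb1 had a log2 difference of 0.51 (SE 0.11, limma adjusted p 0.104). Jak2, a kinase that carries cytokine signals, was at 6.64 and 5.41 FPKM on the NASH diet alone against 9.14 and 9.12 FPKM on the diet with 7KC, a log2 difference of 0.57 (SE 0.14, limma adjusted p 0.132).

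Receptors and partners of the members were examined last. Of 17 genes 15 were tested, 1 rose past the threshold with limma, and 9 were higher and 3 lower without overlap, with a median log2 difference of 0.55. Of all genes tested, 0.48% rose past the threshold, and 25.1% were higher and 27.4% lower without overlap. The gene past the threshold was Tlr2, a receptor for serum amyloid A, at 5.11 and 4.62 FPKM on the NASH diet alone against 12.9 and 12.1 FPKM on the diet with 7KC, a log2 difference of 1.28 (SE 0.12, limma adjusted p 0.0313). The call was lost without control replicate 2 (adjusted p 0.0824), 7KC replicate 1 (0.152) or 7KC replicate 2 (0.238). Fpr2, another receptor for serum amyloid A, was at 6.80 and 3.65 FPKM on the NASH diet alone against 24.8 and 22.6 FPKM on the diet with 7KC, a log2 difference of 2.14 (SE 0.28, limma adjusted p 0.0523). Fcgr4, an Fc receptor of myeloid cells, had a log2 difference of 1.15 (SE 0.14, limma adjusted p 0.0512), and Fc receptors also bind serum amyloid P. Cd163, the scavenger receptor for haptoglobin bound to hemoglobin, was at 3.19 and 4.28 FPKM on the NASH diet alone against 2.72 and 2.89 FPKM on the diet with 7KC. Hmox1, the enzyme that breaks down heme, was at 49.3 and 48.0 FPKM on the NASH diet alone against 60.6 and 85.4 FPKM on the diet with 7KC. Cd163 and Hmox1 were named after their values were seen.

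**Figure D5:**
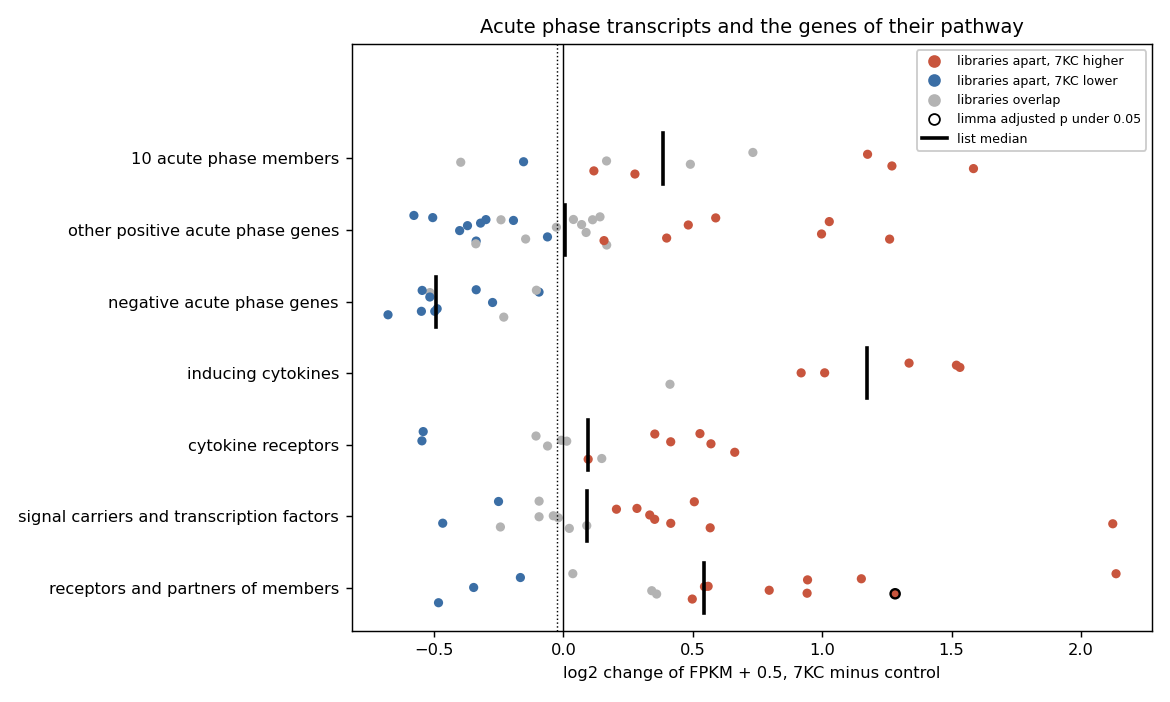
Log2 differences, 7KC minus control, of the 10 acute phase transcripts and of the tested genes in 6 lists of their pathway. Each point is a gene, coloured by whether the libraries overlap and ringed where limma gave an adjusted p under 0.05 (Tlr2), and bars are list medians. The medians run from -0.49 for negative acute phase genes to 1.17 for inducing cytokines, with 0.38 for the 10 members, and the cytokine median covers the 6 of 12 genes that passed the filter.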

How the data were processed

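Stranded messenger RNA libraries of liver were sequenced by the authors as single-end reads and mapped to mm10, and the submitters' processing notes name TopHat2 2.1.1, Bowtie2 2.2.8, SAMtools 0.1.18 and Cuffdiff 2.2.1. The deposited values are FPKM, 1 per gene symbol and library. Because FPKM sets each gene against all mapped fragments, a shift in abundant genes alters the values of the rest. The handling of reads with several matches was not given in the sources used here.

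Groups and replicate numbers came from the labels. Values were compared as log2(FPKM + 0.5), on which the change of low genes is understated. A mean of 0.5 FPKM or more was required, which 12299 genes met, and limma 3.58.1 under R 4.3.3 was applied to these (variance trend, group as the only term, 2 residual and 3.27 prior degrees of freedom), with Benjamini-Hochberg adjustment over all of them. The procedure was tested on simulated data. Depth was estimated from single-transcript genes in GENCODE M21 (GRCm38, the assembly of mm10), with 200 bases taken off each transcript: at that depth 74.6% to 78.4% of low values lay within 0.1 of a whole read, where chance gives 20%.

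All 10 members were named. From each pathway list the genes past the threshold and the 3 with the smallest p were named, with Il6, Il1b, Tnf, Stat3 and Socs3. Pathway and cell marker lists were written from general knowledge, and 4 listed symbols were not matched. A gene of the signal carrier list is not reported here and was left out of its counts. The members and lists were chosen with earlier results of these data known. Alternatives covered the pseudocount, filter, scaling, variance trend, replicate block and each library left out.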

Additional observations from a re-analysis of the deposited data

How the results depend on the processing

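No alternative changed the direction of a member except Saa4, whose log2 difference was 0.052 with all libraries scaled to an equal sum. Among the other named genes Stat3 turned to -0.0083 without control replicate 2, was 0.19 without control replicate 1 and reached 0.30 with equal sums. Counts of calls were unstable. The 59 higher and 3 lower genes became 111 higher with a pseudocount of 1, 0 and 1 without a filter, 402 and 7 with equal sums, and 39 and 1 without the variance trend. Leaving out 1 library gave 2 (without 7KC replicate 2) to 389 (without control replicate 1) higher and 1 to 52 lower. Of the members 1, Saa3, passed with equal sums and 0 or 1 with 1 library left out (1 without control replicate 1). Members higher without overlap numbered 5 to 8 with 1 library left out, 8 without 7KC replicate 1, and the ratio of their shares was 1.20 to 1.73. A lack of overlap is easier to reach for any gene with 1 library left out. The percentage of all genes that reached it then was not computed, so this rise is not a result about the members. With equal sums 2 other positive acute phase genes, 1 cytokine, 1 cytokine receptor, 2 signal carriers or transcription factors and 4 receptors or partners passed. With 1 library left out these were 0 to 3, 0 to 1, 0, 0 and 0 to 3, the highest values without control replicate 1. No filter left 0 partners, a pseudocount of 1 gave 3 partners and no variance trend 0. The causes were not tested. A lone library left in a group was assumed to vary like the other group.

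The labels do not say whether the same replicate numbers pair the samples. The differences between replicates 1 and 2 had a correlation of -0.14 across genes between the groups, which cannot settle this with 2 libraries per group. With the replicate block 0 genes were higher, 0 lower, and 0 partners passed. With the crossed block, added after seeing the data, 551 were higher and 37 lower, and 1 member, Lcn2, passed.

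Depth did not limit the members, but 6 of 12 inducing cytokines were below the filter. Only 2 libraries per group limit each test.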

Other observations

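Other cell markers were read beside the acute phase transcripts. The T and NK cell markers, 9 of 10 found by symbol, summed to 19.6 and 13.1 FPKM on the NASH diet alone against 50.3 and 42.4 FPKM on the diet with 7KC, and each of the 8 tested was higher in the 7KC group without overlap, of which Klrb1c passed the filter on low values only through its 7KC libraries. Cholangiocyte markers summed to 89.4 and 57.8 FPKM on the NASH diet alone against 168 and 368 FPKM on the diet with 7KC, with 2 of 4 tested higher and 1 lower without overlap. Nearly all of this sum was Spp1, at 85.6 and 54.1 FPKM on the NASH diet alone against 165 and 363 FPKM on the diet with 7KC, and each other marker was below 2 FPKM in each library. The endothelial markers overlapped between groups in 6 of 6 genes. Stellate cell markers summed to between 148 and 186 FPKM over all libraries, with 1 higher and 3 lower without overlap. B cell markers were at 13.8 and 3.06 FPKM on the NASH diet alone against 7.98 and 6.97 FPKM on the diet with 7KC. Erythroid markers summed to 113 and 71.3 FPKM on the NASH diet alone against 76.7 and 60.7 FPKM on the diet with 7KC. Of 6 exocrine pancreas markers, 4 were listed at 0 in all libraries. No marker in any of these lists passed the threshold with limma, where 8 T and NK cell, 1 cholangiocyte, 1 B cell and 1 stellate cell marker were higher and 1 stellate cell and 1 erythroid marker lower at an unadjusted p under 0.05. Over all genes tested, 12% were higher and 5.81% lower at that p (limma), and 25.1% were higher and 27.4% lower without overlap.

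Metallothionein and complement genes of the acute phase lists, named after their values were seen, behaved differently from each other. Mt2 was at 242 and 227 FPKM on the NASH diet alone against 284 and 440 FPKM on the diet with 7KC, while its neighbour Mt1 overlapped between groups. C3, C4b and Cfb also overlapped between groups.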
